A study of Danio rerio with 93 samples.

Results

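Disperse Blue 14 is a blue anthraquinone dye of coloured smokes and textiles, whose molecule carries a pair of methylamino groups. The following describes gene expression in the 209 and 261.5 µM treatment groups of this dye, 6 embryos of the 93 in the study, chosen by the dye and concentration in their labels. The study exposed wild-type SPF 5-D (Tropical 5D) zebrafish embryos to smoke dyes and sequenced poly-A RNA of each embryo on its own at 48 h post fertilization (hpf). Embryos had been dechorionated, kept in single wells and given the dye in DMSO, with all wells brought to 0.64% DMSO. The 209 µM treatment group held 3 embryos (label numbers 1, 2 and 4) and the 261.5 µM treatment group held 3 (label numbers 1, 3 and 4). Each was compared with the 4 embryos of the Disperse Blue 14 control, at the same age and in 0.64% DMSO without dye. Concentrations are nominal. The question was which transcripts differed from the control at these 2 doses, which lie below the highest dose tested, 314 µM.

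A vertebrate embryo at this stage responds to foreign chemicals through several known routes. Planar aromatic compounds can bind the aryl hydrocarbon receptor, which then induces cytochrome P450 genes of family CYP1. Damage to DNA induces genes of cell cycle arrest, repair and apoptosis, and wounded tissue induces AP-1 transcription factors, chemokines and matrix proteases. In the vessels, scavenger endothelial cells take up waste from the blood through the stabilins and the mannose receptor, and in zebrafish embryos they do this work in place of the liver's sinusoids. A whole embryo mixes all of these tissues, so fewer cells of a type and less RNA per cell cannot be told apart in any value below.

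The total estimated counts were 33647448 to 35769387 in the 209 µM embryos, 35949824 to 38361566 in the 261.5 µM embryos and 31246726 to 48188027 in the controls. Levels are given in CPM, the counts of a gene relative to the library size after edgeR's TMM scaling. Fold changes are on the log2 scale, exposed over control, with ± their standard error. Markers of muscle (ckma), heart (myl7), blood (alas2), lens (cryaa), epidermis (krt4), liver and yolk (apoa2) and glia (gfap) were counted in all 10 embryos. Within the 209 µM treatment group, embryo 1 differed from embryos 2 and 4 more than these differed from each other (chi-square per gene 385 and 256, against 42.3), while the 261.5 µM pairs had 23.3 to 45.3. All 6 exposed embryos shared 1 second index sequence and all 4 controls another, so the index and the exposure cannot be told apart. No 2 libraries of a group were alike within counting noise. The labels do not say whether embryos came from separate clutches or plates, so p-values measure only the spread between the embryos fitted. These were the 19 embryos of all 6 Disperse Blue 14 groups, other doses among them.

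Control 1 stood apart from the other controls, and this touches most results below. CYP1A1, the xenobiotic-metabolising enzyme that is the classic target of the aryl hydrocarbon receptor, had 1350, 6.37, 4.58 and 5.39 CPM in controls 1, 2, 3 and 4. Wherever 4 control values are listed they follow this order, so the first is control 1. When control 1 was left out, the genes then called different between exposed embryos and controls placed this embryo nearer to the exposed mean than to that of the other controls in 327 of 379 genes (86.3%) at 209 µM and in 619 of 827 (74.8%) at 261.5 µM. For controls 2, 3 and 4 left out in the same way, this held for 5 of 26 (19.2%), 0 of 12 (0%) and 2 of 17 genes (11.8%) at 209 µM. At 261.5 µM it held for 18 of 118 (15.3%), 9 of 98 (9.18%) and 9 of 94 (9.57%). Control 1 stayed in these fits, which called fewer genes, so the shares do not come from the same genes. Control 2 was the most deeply sequenced and also differed from controls 3 and 4 (chi-square per gene 655 and 558, against 19 between controls 3 and 4). For control 1 against controls 3 and 4 it was 98.9 and 81.4, so by this measure control 2 lay further from them than control 1 did. The group of every embryo is kept as labelled, and the counts and values that control 1 changes most are given with and without it. Control 1 was set apart on these same values. For genes in which it stood apart, an adjusted p without it is therefore no independent test.

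Differentially expressed genes (DEGs) are those that differed by more than 1.5-fold at an adjusted p (Benjamini-Hochberg) below 0.05. The p-values come from edgeR's quasi-likelihood test over all 19 embryos of the 6 Disperse Blue 14 groups. At 209 µM, 24 of 17887 genes were DEGs (0.134%), of which 16 were higher (0.0895%) and 8 lower (0.0447%) than in the control. At 261.5 µM there were 191 DEGs (1.07%), 139 higher (0.777%) and 52 lower (0.291%). An unadjusted p under 0.05 was reached by 1533 genes at 209 µM (8.57%) and 3066 at 261.5 µM (17.1%). A total of 21 genes were DEGs at both doses, each in the same direction at both, and the 2 comparisons share their controls. Exposed embryos and controls did not overlap in 23 of the 24 and 177 of the 191 DEGs, and in 951 (5.32%) and 2907 (16.3%) of all 17887 genes tested. The DEGs were called on the same values, so this count describes them and is no further test. Without control 1 there were 379 DEGs of 17864 at 209 µM (2.12%, 186 higher and 193 lower) and 827 at 261.5 µM (4.63%, 433 higher and 394 lower). Of the DEGs found with all 4 controls, 23 of the 24 and 190 of the 191 were among them. The median log2 fold change of all genes tested was -0.01 at 209 µM and -0.03 at 261.5 µM.

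The calls changed with the groups that were fitted together. A fit of 1 treatment group and the control alone gave 0 DEGs at either dose, with 556 genes at an unadjusted p under 0.05 at 209 µM and 1881 at 261.5 µM. Leaving out each embryo in turn gave 10 to 379 DEGs at 209 µM and 24 to 827 at 261.5 µM, the highest of each without control 1. The 209 µM count was 10, 12 and 12 without exposed embryos 1 and 2 and without control 3. The 261.5 µM count was 41, 77 and 24 without exposed embryos 1, 3 and 4, and 118, 98 and 94 without controls 2, 3 and 4. In all 7 of these fits 9 of the 24 DEGs at 209 µM were called. They were stab2, MRC1 and ANKRD1, which were lower, and npvf, c6.1, c6.2, mat2al, cxcl18a.1 and si:dkeyp-92c9.4, which were higher. At 261.5 µM 24 genes were called in all 7 fits, 17 higher and 7 lower, and these same 9 were among them.

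The receptors stab2, MRC1 and stab1, known from scavenger endothelium, were lower at both doses. The stabilin stab2 (ENSDARG00000045748), a receptor by which these cells clear hyaluronan and other waste, had 10.5, 8.32 and 10.5 CPM at 209 µM and 8.44, 9.34 and 11 CPM at 261.5 µM, against 29.8, 51.3, 46.9 and 47.9 CPM in the controls. Every exposed embryo lay well below every control, and control 1 was the lowest of the controls. On the log2 scale the change was -2.17 ± 0.18 at 209 µM (adjusted p = 1.45e-05) and -2.20 ± 0.18 at 261.5 µM (adjusted p = 1.18e-05). Without control 1 it was -2.31 (adjusted p = 4.13e-07) at 209 µM and -2.34 (adjusted p = 1.76e-07) at 261.5 µM.

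The mannose receptor MRC1, another uptake receptor of these cells and of macrophages, had 6.04, 10.9 and 12.4 CPM at 209 µM and 8.07, 11.5 and 10.9 CPM at 261.5 µM, against 33.4, 50.4, 80.9 and 77.5 CPM in the controls. The fitted log2 fold change was -2.63 ± 0.29 at 209 µM (adjusted p = 0.000287) and -2.58 ± 0.29 at 261.5 µM (adjusted p = 0.000293). The second stabilin, stab1, had 11.8, 8.89 and 13.9 CPM at 209 µM and 8.26, 12.8 and 10.8 CPM at 261.5 µM, against 25.7, 22.6, 25.7 and 31.1 CPM in the controls, with a log2 fold change of -1.19 ± 0.22 at 209 µM (adjusted p = 0.037) and -1.31 ± 0.22 at 261.5 µM (adjusted p = 0.0092). All 6 exposed embryos lay below all 4 controls for both receptors. Disperse Red 9 control 4 had 10.3 CPM of stab1, within the range of the exposed embryos. In the other dyes' remaining controls stab1 was at least 22.7 CPM. Disperse Red 9 control 4 was also the lowest of them for stab2 (25.6 CPM) and MRC1 (28.2 CPM), though above every exposed embryo. Of the 7 fits that each left out an embryo, stab1 was called in 2 at 209 µM (highest adjusted p = 0.302) and in 5 at 261.5 µM (0.0658). The endothelial tyrosine phosphatase ptprb, a partner of the Tie2 receptor and of VE-cadherin, had 4.46, 2.51 and 2.37 CPM at 209 µM and 2.54, 2.25 and 1.49 CPM at 261.5 µM, against 6.31, 19.7, 13 and 14.2 CPM in the controls. In edgeR's fit the log2 fold change was -2.10 ± 0.32 at 209 µM (adjusted p = 0.00767) and -2.67 ± 0.33 at 261.5 µM (adjusted p = 0.00064), and here too control 1 was the control nearest to the exposed embryos. At 209 µM it was called in 5 of these 7 fits (highest adjusted p = 0.0909, without 209 µM embryo 2).

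**Figure D1:**
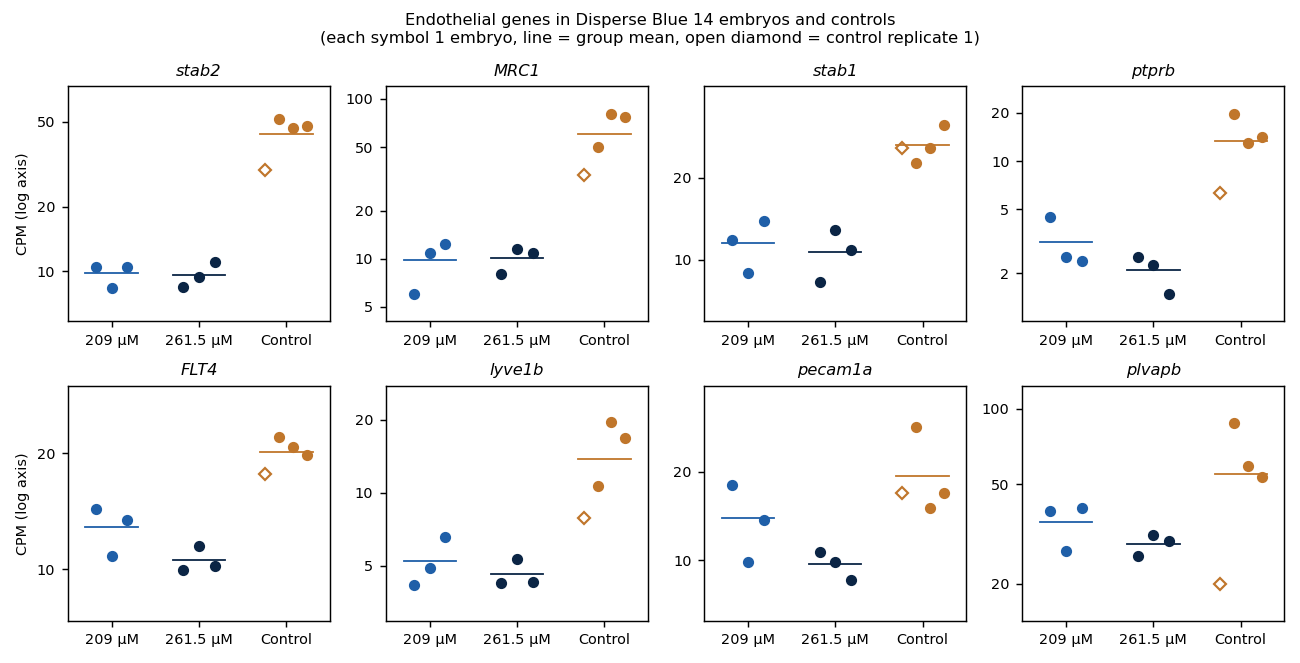
CPM on a log axis for 8 endothelial genes in the 209 µM embryos, the 261.5 µM embryos and the controls, 1 symbol per embryo, with a line at the group mean and control 1 as an open diamond. The exposed embryos lie below every control for stab2, MRC1, stab1, ptprb, FLT4 and lyve1b, while for pecam1a the 209 µM embryos overlap with the controls and for plvapb control 1 is the lowest embryo of all.

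Of 39 endothelial genes tested, in a list written after the stabilins had been seen, 0 were higher and 4 lower at 209 µM, and 0 were higher and 7 lower at 261.5 µM. The list's median log2 fold change was -0.34 and -0.48. The 3 further DEGs at 261.5 µM were FLT4, the VEGF-C receptor of veins and lymphatics, pecam1a, an adhesion molecule between endothelial cells, and ushbp1. FLT4 had 14.3, 10.8 and 13.4 CPM at 209 µM and 9.93, 11.5 and 10.2 CPM at 261.5 µM, against 17.7, 22.1, 20.8 and 19.8 CPM in the controls, and its log2 fold change at 261.5 µM was -0.94 ± 0.16 (adjusted p = 0.00978). Disperse Red 9 control 4 had 9.2 CPM of FLT4, below every exposed embryo, and the other dyes' remaining controls had at least 16 CPM. For pecam1a the log2 fold change at 261.5 µM was -0.99 ± 0.23 (adjusted p = 0.0449) and for ushbp1 -0.90 ± 0.18 (adjusted p = 0.0233). For all 3 the 261.5 µM embryos lay below every Disperse Blue 14 control, and FLT4 was called in 5, pecam1a in 2 and ushbp1 in 3 of the 7 fits with an embryo left out. The hyaluronan receptor lyve1b, which marks the same scavenger cells, had 4.17, 4.91 and 6.58 CPM at 209 µM and 4.24, 5.36 and 4.28 CPM at 261.5 µM, against 7.89, 10.7, 19.6 and 16.8 CPM in the controls, and passed at neither dose (adjusted p = 0.184 and 0.0523). Disperse Red 9 control 4 had 15.9 CPM of lyve1b, above every exposed embryo, and Solvent Red 169 control 2 had 3.88 CPM, below them.

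Neither cdh5 nor kdrl passed the test. The VE-cadherin gene cdh5, which joins endothelial cells to each other, averaged 95.3, 109 and 119 CPM at 209 µM, at 261.5 µM and in the controls, and its log2 fold change was -0.32 at 209 µM (adjusted p = 0.907) and -0.13 at 261.5 µM (adjusted p = 0.862). For kdrl, the main VEGF receptor of zebrafish endothelium, these means were 48.7, 53.8 and 75 CPM and the log2 fold change -0.62 at 209 µM (adjusted p = 0.245) and -0.48 at 261.5 µM (adjusted p = 0.212). Without control 1, 7 of 38 endothelial genes were lower at 209 µM and 10 at 261.5 µM, among them plvapb and lyve1b at both doses. One copy of CLDN5, a tight junction gene, was then higher at both doses, and it had 76.2, 72.4 and 77.9 CPM at 209 µM and 62.7, 63.6 and 78 CPM at 261.5 µM, against 62.2, 34, 49.6 and 36.7 CPM in the controls.

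Some terminal complement genes were higher at both doses. C6 and C7 are the proteins that start the membrane attack complex after C5 is cleaved, and the zebrafish genome holds more than 1 copy of each. The gene c6.2 had 110, 156 and 126 CPM at 209 µM and 136, 157 and 162 CPM at 261.5 µM, against 54.9, 32.7, 28.6 and 26.4 CPM in the controls. Every exposed embryo lay far above the highest control, which was control 1. The log2 difference from the controls was 1.87 ± 0.22 at 209 µM (adjusted p = 0.000351) and 2.09 ± 0.22 at 261.5 µM (adjusted p = 0.000126). The gene c6.1 had 13.8, 26.5 and 17.5 CPM at 209 µM and 25.1, 17 and 27.1 CPM at 261.5 µM, against 5.18, 3.86, 3.02 and 3.9 CPM in the controls, with a log2 fold change of 2.27 ± 0.24 at 209 µM (adjusted p = 0.000213) and 2.53 ± 0.25 at 261.5 µM (adjusted p = 6.91e-05), and again the groups were far apart. With the 14 controls of the other dyes c6.1 was not called at 209 µM (adjusted p = 0.0513). Solvent Red 169 controls 1 and 2 had 25.4 and 11.7 CPM of c6.1, against 2.18 to 5.62 CPM in the other 12.

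The gene c7a had 33.8, 39.8 and 42.7 CPM at 209 µM and 39.6, 42.3 and 41.8 CPM at 261.5 µM, against 20.8, 16.2, 23.6 and 22.7 CPM in the controls. Relative to the controls the log2 fold change was 0.90 ± 0.17 at 209 µM (adjusted p = 0.0493) and 0.98 ± 0.17 at 261.5 µM (adjusted p = 0.00978), and the 209 µM call was kept in 1 of the 7 fits with an embryo left out. With the 18 pooled controls of all dyes and with the 14 of the other dyes c7a was not called at 209 µM (adjusted p = 0.104 and 0.103). The second C7 gene, c7b, had 15.5, 32.4 and 23.2 CPM at 209 µM and 37.2, 23.3 and 17.1 CPM at 261.5 µM, against 14.1, 10.3, 11.4 and 14.3 CPM in the controls and did not pass the test at either dose (adjusted p = 0.214 and 0.0578). The other components tested, c8a, c8b and c8g, had log2 fold changes between -0.14 and 0.36 and adjusted p of 0.541 or more. So 3 of the 7 terminal components tested were higher at each dose and 0 were lower, in a list written after c6.1 and c6.2 had been seen. Reads common to similar copies are assigned by estimation, so the split between c6.1 and c6.2 is less certain than their sum.

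Several ms4a17a genes, a zebrafish family of membrane-spanning proteins with numbered copies, were also higher. Of the 10 tested, 4 were DEGs at 209 µM and 5 at 261.5 µM, all of them higher, and the family's median log2 fold change was 1.31 and 1.35. The largest change in the family was that of ms4a17a.4, with 9.28, 15 and 9.41 CPM at 209 µM and 13.3, 10.7 and 15.5 CPM at 261.5 µM, against 3.98, 0.294, 1.31 and 1.3 CPM in the controls and a log2 fold change of 2.73 ± 0.49 at 209 µM (adjusted p = 0.036) and 2.96 ± 0.50 at 261.5 µM (adjusted p = 0.0092). The copy ms4a17a.11 had 91.9, 80 and 79.4 CPM at 209 µM and 83.3, 74.7 and 88.3 CPM at 261.5 µM, against 48.4, 25.8, 25.6 and 26.7 CPM in the controls and a log2 fold change of 1.41 ± 0.21 at 209 µM (adjusted p = 0.00718) and 1.38 ± 0.21 at 261.5 µM (adjusted p = 0.00515). In both, control 1 lay between the exposed embryos and the other controls. Of the other dyes' controls, Solvent Red 169 controls 1 and 2 had 13.5 and 5.18 CPM of ms4a17a.4 and 80.5 and 51.8 CPM of ms4a17a.11. The rest had at most 1.49 and 29 CPM. With the other dyes' controls both copies were called again at both doses. The copies ms4a17a.5 and ms4a17a.7 followed at both doses, with log2 fold changes of 2.02 and 1.34 at 209 µM and 1.85 and 1.40 at 261.5 µM. The copy ms4a17a.1 passed at 261.5 µM, with a log2 fold change of 2.50 ± 0.50 (adjusted p = 0.0233), and had 2.38 ± 0.50 (adjusted p = 0.0768) at 209 µM. Without control 1, 7 of the 10 were higher at 209 µM and 6 at 261.5 µM. The copies share sequence, so the count of separate genes is uncertain. The list was written after some members had been seen.

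The chemokine cxcl18a.1, a secreted attractant of leukocytes, had 8.46, 13.1 and 12.6 CPM at 209 µM and 8.9, 8.43 and 14 CPM at 261.5 µM, against 3, 0.858, 2.13 and 0.875 CPM in the controls. The lowest exposed embryo was far above the highest control, which was again control 1. Its log2 fold change was 2.74 ± 0.35 at 209 µM (adjusted p = 0.00111) and 2.62 ± 0.35 at 261.5 µM (adjusted p = 0.0014). The neuropeptide precursor npvf, made by a small group of hypothalamic neurons and known in zebrafish larvae for promoting sleep, had 10.4, 13.4 and 11.9 CPM at 209 µM and 9.87, 10.6 and 11 CPM at 261.5 µM, against 3.22, 2.26, 3.73 and 3.61 CPM in the controls. For npvf control 1 did not differ from the other controls, and the log2 fold change of 1.89 ± 0.19 at 209 µM (adjusted p = 0.000162) and 1.71 ± 0.19 at 261.5 µM (adjusted p = 0.000293) was 1.90 (adjusted p = 0.000116) at 209 µM and 1.71 (adjusted p = 0.000208) at 261.5 µM without it.

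The gene mat2al, whose product makes the methyl donor S-adenosylmethionine from methionine, had 35.7, 43 and 27.8 CPM at 209 µM and 38.7, 36.6 and 43.4 CPM at 261.5 µM, against 19.1, 14.1, 13.4 and 12.5 CPM in the controls. On the log2 scale the change was 1.27 ± 0.18 at 209 µM (adjusted p = 0.00438) and 1.43 ± 0.18 at 261.5 µM (adjusted p = 0.000924). Among the controls of the other 4 dyes mat2al reached 10 to 48.2 CPM (median 12.9), and with these 14 embryos as the control it was a DEG at 261.5 µM (adjusted p = 0.0452) and not at 209 µM (adjusted p = 0.146). Solvent Red 169 controls 1 and 2 alone had 48.2 and 41.5 CPM, against 10.0 to 15.8 CPM in the other 12. The gene si:dkeyp-92c9.4, of no stated function, had 0 counts in all 4 controls and 0.82, 1.72 and 1.24 CPM at 209 µM and 1.67, 0.843 and 1.7 CPM at 261.5 µM. Against 3 counts per control library, the limit that a count of 0 allows, it was at least 15.3-fold higher at 209 µM and at least 17.1-fold higher at 261.5 µM. This limit covers counting error only.

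**Figure D2:**
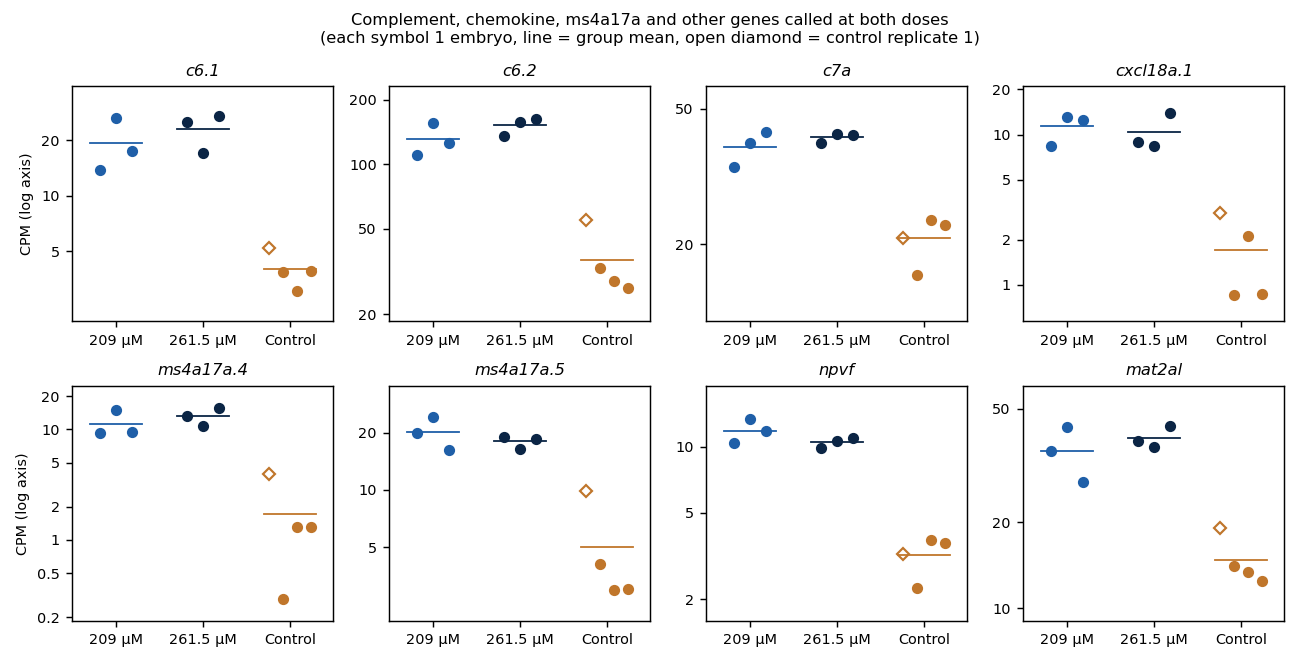
CPM on a log axis for 8 genes that were DEGs at both doses, in the 209 µM embryos, the 261.5 µM embryos and the controls, 1 symbol per embryo, with a line at the group mean and control 1 as an open diamond. For all 8 every exposed embryo lies above every control, and control 1 is the highest control for c6.1, c6.2, cxcl18a.1, ms4a17a.4, ms4a17a.5 and mat2al.

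A further pair of genes was higher at both doses. The gene si:dkey-7j14.6 had 114, 117 and 94.2 CPM at 209 µM and 113, 116 and 109 CPM at 261.5 µM, against 75, 47.7, 55.8 and 50 CPM in the controls, a log2 fold change of 0.93 ± 0.15 at 209 µM (adjusted p = 0.0124) and 0.98 ± 0.15 at 261.5 µM (adjusted p = 0.00495). The phosphatase gene DUSP23 had 3.02, 3.5 and 3.47 CPM at 209 µM and 1.75, 3.06 and 3.37 CPM at 261.5 µM, against 0.852, 0.836, 1.55 and 1.44 CPM in the controls, a log2 fold change of 1.51 ± 0.28 at 209 µM (adjusted p = 0.0465) and 1.22 ± 0.28 at 261.5 µM (adjusted p = 0.0449). In the 7 fits with an embryo left out, DUSP23 was called in 1 at 209 µM and in 2 at 261.5 µM.

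The remaining 3 DEGs at 209 µM did not pass at 261.5 µM. The ubiquitin ligase gene lonrf1 had 56.4, 51.8 and 53.5 CPM at 209 µM and 50.8, 56.2 and 52.3 CPM at 261.5 µM, against 33.1, 31.8, 40.1 and 37.2 CPM in the controls. The fitted log2 fold change was 0.60 ± 0.11 at 209 µM (adjusted p = 0.0466) and 0.58 ± 0.11 at 261.5 µM (adjusted p = 0.0199), so at 261.5 µM its fold change was just under 1.5. In the 14 control embryos of the other dyes lonrf1 lay at 10.5 to 23.6 CPM (median 11.5), so that all 4 controls of Disperse Blue 14 were above all of these. A similar gap to the other dyes' controls held for CRY1, a repressor of the circadian clock and a DEG at 261.5 µM, which had 36.3, 30.8 and 34.1 CPM at 209 µM and 31.1, 32.5 and 31.1 CPM at 261.5 µM, against 16.7, 18.1, 22.5 and 25.4 CPM in the controls, and 4.69 to 12.6 CPM (median 8.35) in those 14 embryos. The interferon-induced membrane gene ifitm1 had 1.61, 2.23 and 2.02 CPM at 209 µM and 1.51, 1.2 and 0.783 CPM at 261.5 µM, against 0.284, 0.339, 0.463 and 0.847 CPM in the controls. In edgeR's fit the log2 fold change was 2.01 ± 0.37 at 209 µM (adjusted p = 0.037) and 1.26 ± 0.37 at 261.5 µM (adjusted p = 0.118). The gene si:dkey-193p11.2 had 32.5, 17 and 14.7 CPM at 209 µM and 10.1, 11.7 and 10.8 CPM at 261.5 µM, against 7.77, 5.92, 7.38 and 4.91 CPM in the controls and a log2 fold change of 1.72 ± 0.33 at 209 µM (adjusted p = 0.0466) and 0.74 ± 0.33 at 261.5 µM (adjusted p = 0.268). The difference between the 2 doses did not pass the test for any of the 3.

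Among the genes lower at both doses outside the endothelium, ANKRD1 (ENSDARG00000076192), a stretch-induced ankyrin repeat protein of heart and skeletal muscle, had 12.1, 12 and 9.7 CPM at 209 µM and 9.01, 7.61 and 7.91 CPM at 261.5 µM, against 22.4, 69.4, 53.8 and 41.6 CPM in the controls. The log2 difference from the controls was -2.05 ± 0.29 at 209 µM (adjusted p = 0.00432) and -2.52 ± 0.30 at 261.5 µM (adjusted p = 0.000422), and the exposed embryos lay below every control. The carboxypeptidase gene PRCP, known in mammals for cleaving angiotensin peptides, had 12.5, 16.3 and 16.1 CPM at 209 µM and 14.5, 16.9 and 16.7 CPM at 261.5 µM, against 26.1, 23.4, 33.7 and 31 CPM in the controls, with a log2 fold change of -0.93 ± 0.15 at 209 µM (adjusted p = 0.013) and -0.83 ± 0.15 at 261.5 µM (adjusted p = 0.0123). One copy of TMEM120A (ENSDARG00000042379), a membrane protein gene, had 1.12, 2.23 and 0.953 CPM at 209 µM and 1.51, 2.25 and 1.59 CPM at 261.5 µM, against 5.02, 6.64, 5.07 and 4.07 CPM in the controls and a log2 fold change of -1.85 ± 0.34 at 209 µM (adjusted p = 0.037) and -1.54 ± 0.33 at 261.5 µM (adjusted p = 0.0326). At 261.5 µM, PRCP was called in 5 and TMEM120A in 2 of the 7 fits with an embryo left out (highest adjusted p 0.0934 and 0.192). Of the other dyes' controls, Solvent Red 169 controls 1 and 2 had 15.6 and 12.7 CPM of ANKRD1 and 20.2 and 17.3 CPM of PRCP. For TMEM120A they had 1.69 and 0.953 CPM. The rest had at least 40.1, 25.9 and 4.84 CPM of these genes. With the other dyes' controls all 3 were called again at both doses.

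The lens gene crygm2d11, a gamma-M crystallin of the fish lens fibre, was lower at both doses. It had 1.28, 0.677 and 0.866 CPM at 209 µM and 1.59, 0.715 and 0.574 CPM at 261.5 µM, against 0.821, 159, 101 and 84.3 CPM in the controls. The exposed embryos were as low as control 1 and far below controls 2, 3 and 4, so the groups overlapped. Relative to the controls the log2 fold change was -6.52 ± 1.08 at 209 µM (adjusted p = 0.0138) and -6.49 ± 1.07 at 261.5 µM (adjusted p = 0.00846), and -6.94 (adjusted p = 4.71e-07) at 209 µM and -6.90 (adjusted p = 3.44e-07) at 261.5 µM without control 1. In the other dyes' controls it lay at 0.116 to 46.9 CPM (median 27.9), where Solvent Red 169 controls 1 and 2 had 0.138 and 0.116 CPM and the other 12 embryos 23.4 to 46.9 CPM.

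At 261.5 µM some genes of growth arrest and the DNA damage response were higher. Of 29 such genes tested, 6 were higher and 0 lower at this dose, and 0 were DEGs at 209 µM. The list's median log2 fold change was 0.31 at 209 µM and 0.43 at 261.5 µM. The gene mdm2, a ubiquitin ligase induced by DNA damage, had 117, 209 and 108 CPM at 209 µM and 217, 158 and 208 CPM at 261.5 µM, against 83.9, 51.9, 40.9 and 62 CPM in the controls. Its log2 fold change was 1.28 ± 0.29 at 209 µM (adjusted p = 0.101) and 1.71 ± 0.29 at 261.5 µM (adjusted p = 0.00978). The cell cycle inhibitor cdkn1a (p21) had 12.3, 21.1 and 9.9 CPM at 209 µM and 24.7, 13.7 and 21.4 CPM at 261.5 µM, against 6.79, 1.45, 3.27 and 5.08 CPM in the controls, with a log2 fold change of 1.81 ± 0.39 at 209 µM (adjusted p = 0.0844) and 2.27 ± 0.39 at 261.5 µM (adjusted p = 0.00978). For both genes all 6 exposed embryos lay above all 4 controls, and within the 209 µM treatment group embryo 2 was the highest. Of the other dyes' controls, Solvent Red 169 controls 1 and 2 had 178 and 223 CPM of mdm2 and 16.3 and 14.1 CPM of cdkn1a. The rest had at most 60.9 and 3.27 CPM. With the 14 controls of the other dyes both genes were called again at 261.5 µM.

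The other genes of this list called at 261.5 µM were GADD45A, a sensor of growth arrest and DNA damage, PHLDA3, pmaip1 (Noxa) and the initiator caspase gene casp8. GADD45A had 16.5, 27.8 and 15.1 CPM at 209 µM and 25.5, 20 and 26.1 CPM at 261.5 µM, against 10.5, 7.48, 7.79 and 8.7 CPM in the controls and a log2 fold change of 1.47 ± 0.25 (adjusted p = 0.00928) at 261.5 µM. For PHLDA3 the log2 fold change at this dose was 1.54 ± 0.30 (adjusted p = 0.0199), for pmaip1 1.14 ± 0.21 (adjusted p = 0.0128) and for casp8 1.22 ± 0.24 (adjusted p = 0.0207). Of the 7 fits with an embryo left out at 261.5 µM, GADD45A was called in 6, mdm2, cdkn1a and pmaip1 in 5, PHLDA3 in 4 and casp8 in 3. With the 18 pooled controls of all dyes and with the 14 of the other dyes casp8 was not called (adjusted p = 0.0985 and 0.127). Solvent Red 169 controls 1 and 2 had 49.5 and 37.9 CPM of PHLDA3, against at most 19.5 CPM in the other dyes' remaining controls. Without control 1, 7 of the 29 genes were higher at 209 µM and 10 at 261.5 µM, and 0 were lower. Of 16 further genes of the apoptosis machinery tested, a list without casp8 and pmaip1, 0 were DEGs at either dose, with or without control 1.

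Feedback genes of cytokine signalling were among the DEGs at 261.5 µM. Both copies of SOCS3, the feedback inhibitor of receptors that use gp130, were DEGs there. Copy ENSDARG00000026611 had 47.9, 67.5 and 40 CPM at 209 µM and 69.5, 62 and 74 CPM at 261.5 µM, against 31.4, 11.7, 16.6 and 11.7 CPM in the controls, with a log2 fold change of 1.54 ± 0.30 at 209 µM (adjusted p = 0.052) and 1.94 ± 0.31 at 261.5 µM (adjusted p = 0.00575). Copy ENSDARG00000025428 had 11.3, 19.7 and 7.97 CPM at 209 µM and 21.2, 16.1 and 21.6 CPM at 261.5 µM, against 6.25, 2.67, 3.92 and 2.88 CPM in the controls, with a log2 fold change of 1.73 ± 0.34 at 209 µM (adjusted p = 0.052) and 2.33 ± 0.34 at 261.5 µM (adjusted p = 0.0034). All exposed embryos were above all controls for both copies. In Solvent Red 169 controls 1 and 2 the copies had 53.3 and 22.7 CPM (ENSDARG00000026611) and 13.8 and 5.14 CPM (ENSDARG00000025428). The gp130 gene il6st had 152, 284 and 229 CPM at 209 µM and 333, 273 and 326 CPM at 261.5 µM, against 196, 48.2, 118 and 113 CPM in the controls, and its log2 fold change at 261.5 µM was 1.39 ± 0.31 (adjusted p = 0.0383). For lifrb, the LIF receptor subunit that pairs with gp130, that value was 1.56 ± 0.29 (adjusted p = 0.0128).

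Of 25 genes tested in a list of cytokines, chemokines and genes linked to them, 1 was higher at 209 µM and 6 were higher at 261.5 µM, and 0 were lower at either dose. The list's median log2 fold change was 0.18 at 209 µM and 0.22 at 261.5 µM. The 6 were both SOCS3 copies, irg1l, cxcl18a.1, cxcl8b.1 and il11a, so 3 of them are not themselves cytokines or chemokines. Without control 1, 7 of the list were DEGs at 209 µM and 9 at 261.5 µM. The neutrophil attractant cxcl8b.1 had 1.44, 1.86 and 0.895 CPM at 209 µM and 1.67, 3.14 and 2.82 CPM at 261.5 µM, against 0.474, 0.429, 0.218 and 0.424 CPM in the controls and a log2 fold change of 1.85 ± 0.64 at 209 µM (adjusted p = 0.359) and 2.71 ± 0.63 at 261.5 µM (adjusted p = 0.0451). The chemokine ccl20b, outside the list, had 0.426, 0.48 and 0.433 CPM at 209 µM and 1.11, 0.357 and 1.1 CPM at 261.5 µM, against 0.126, 0.0226, 0.0545 and 0 CPM in the controls. The interleukin gene il1b had 1.8, 2.31 and 1.79 CPM at 209 µM and 2.59, 3.19 and 2.43 CPM at 261.5 µM, against 5.59, 0.745, 1.14 and 0.791 CPM in the controls, so control 1 had the highest level of the 10 embryos. The log2 fold change of il1b was -0.06 ± 0.58 at 209 µM (adjusted p = 0.993) and 0.42 ± 0.57 at 261.5 µM (adjusted p = 0.694), and without control 1 it was 1.14 (adjusted p = 0.176) at 209 µM and 1.61 (adjusted p = 0.0246) at 261.5 µM. For hgfa, the hepatocyte growth factor, the log2 fold change at 261.5 µM was 0.96 ± 0.17 (adjusted p = 0.00978). The genes hgfa, il6st, lifrb, ccl20b, PHLDA3, pmaip1 and casp8 were picked for naming after their values were seen.

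Of 34 AP-1 and immediate early genes, 3 were higher and 0 lower at 261.5 µM, and 0 were DEGs at 209 µM. FOSL1, a Fos family partner of Jun, had 8.46, 20.2 and 8.52 CPM at 209 µM and 34.2, 23.1 and 37 CPM at 261.5 µM, against 14.2, 1.54, 2.62 and 2.15 CPM in the controls, with a log2 fold change of 1.29 ± 0.60 at 209 µM (adjusted p = 0.571) and 2.63 ± 0.61 at 261.5 µM (adjusted p = 0.0447). FOS had 6.36, 10.4 and 4.65 CPM at 209 µM and 12.6, 7.46 and 15.1 CPM at 261.5 µM, against 5.71, 0.949, 2.32 and 1.41 CPM in the controls, with a log2 fold change of 1.47 ± 0.47 at 209 µM (adjusted p = 0.308) and 2.18 ± 0.47 at 261.5 µM (adjusted p = 0.0327). In both, control 1 overlapped with the 209 µM embryos and controls 2, 3 and 4 lay far below. The zinc finger gene KLF6 had 156, 198 and 159 CPM at 209 µM and 179, 169 and 203 CPM at 261.5 µM, against 132, 79.8, 123 and 118 CPM in the controls, and its log2 fold change at 261.5 µM was 0.70 ± 0.16 (adjusted p = 0.0393). Without control 1, 4 of the 34 were DEGs at 209 µM (3 higher, 1 lower) and 5 at 261.5 µM (4 higher, 1 lower). Of all genes 2.12% and 4.63% were DEGs in these fits. Of the 7 fits with an embryo left out, FOSL1 was called in 1, FOS in 2 and KLF6 in 1 at 261.5 µM. With the 18 pooled controls of all dyes FOSL1 (adjusted p = 0.187) and KLF6 (under 1.5-fold) were not called, and with the 14 of the other dyes FOSL1 (adjusted p = 0.215) and FOS (adjusted p = 0.0507) were not. Solvent Red 169 controls 1 and 2 had 63.9 and 24.6 CPM of FOSL1, against 1.19 to 3.02 CPM in the other 12.

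Among 27 genes of matrix remodelling and wounds, 3 were higher and 0 lower at 261.5 µM and 0 were DEGs at 209 µM. The protease inhibitor TIMP2 had 23.4, 42.3 and 21 CPM at 209 µM and 72.7, 71.3 and 81 CPM at 261.5 µM, against 30.4, 11.8, 19.4 and 12.9 CPM in the controls. On the log2 scale the change was 0.63 ± 0.41 at 209 µM (adjusted p = 0.744) and 2.01 ± 0.41 at 261.5 µM (adjusted p = 0.0254). The adhesive glycoprotein THBS1 had 66.2, 84.6 and 62.9 CPM at 209 µM and 94, 92.4 and 95.7 CPM at 261.5 µM, against 57, 41.1, 27.8 and 29.9 CPM in the controls, with a log2 fold change of 0.87 ± 0.22 at 209 µM (adjusted p = 0.153) and 1.27 ± 0.22 at 261.5 µM (adjusted p = 0.00978). The annexin anxa1b, the last of the 3, had 111, 147 and 109 CPM at 209 µM and 104, 98.1 and 129 CPM at 261.5 µM, against 76.6, 54.2, 40.7 and 49.9 CPM in the controls and a log2 fold change of 1.14 ± 0.23 at 209 µM (adjusted p = 0.052) and 1.0 ± 0.22 at 261.5 µM (adjusted p = 0.0387). In the 14 controls of the other dyes its median was 89.7 CPM, and with these as the control its log2 fold change at 261.5 µM was -0.08 (adjusted p = 0.947). Solvent Red 169 controls 1 and 2 had 366 and 260 CPM of anxa1b, against 59.7 to 119 CPM in the other 12. Of the 7 fits with an embryo left out, TIMP2 was called in 1, THBS1 in 6 and anxa1b in 1 at 261.5 µM. Without control 1, 3 of the 27 were DEGs at 209 µM and 4 at 261.5 µM. The matrix protease MMP9 did not pass with all controls. It had 28.4, 29.5 and 31.5 CPM at 209 µM and 74.9, 60.6 and 127 CPM at 261.5 µM, against 51, 9.6, 6.78 and 5.93 CPM in the controls, and control 1 lay above every 209 µM embryo. Solvent Red 169 controls 1 and 2 had 117 and 76.1 CPM of MMP9, against at most 9.87 CPM in the other dyes' remaining controls. The log2 fold change of MMP9 was 0.71 ± 0.63 at 209 µM (adjusted p = 0.871) and 2.26 ± 0.64 at 261.5 µM (adjusted p = 0.102), and 2.0 (adjusted p = 0.0356) at 209 µM and 3.55 (adjusted p = 0.000524) at 261.5 µM without control 1. The hyaluronan receptor cd44a had 4.03, 7.73 and 5.46 CPM at 209 µM and 7.8, 9.55 and 11.4 CPM at 261.5 µM, against 1.48, 1.99, 2.18 and 2.94 CPM in the controls and the transglutaminase tgm2l 21.4, 24.5 and 19.6 CPM at 209 µM and 35.2, 40.3 and 38.4 CPM at 261.5 µM, against 9.19, 19.5, 7.14 and 10.4 CPM in the controls. Their log2 fold changes at 261.5 µM were 2.15 ± 0.34 (adjusted p = 0.00532) and 1.71 ± 0.28 (adjusted p = 0.00846), and both, picked after their values were seen, were called in all 7 fits with an embryo left out.

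**Figure D3:**
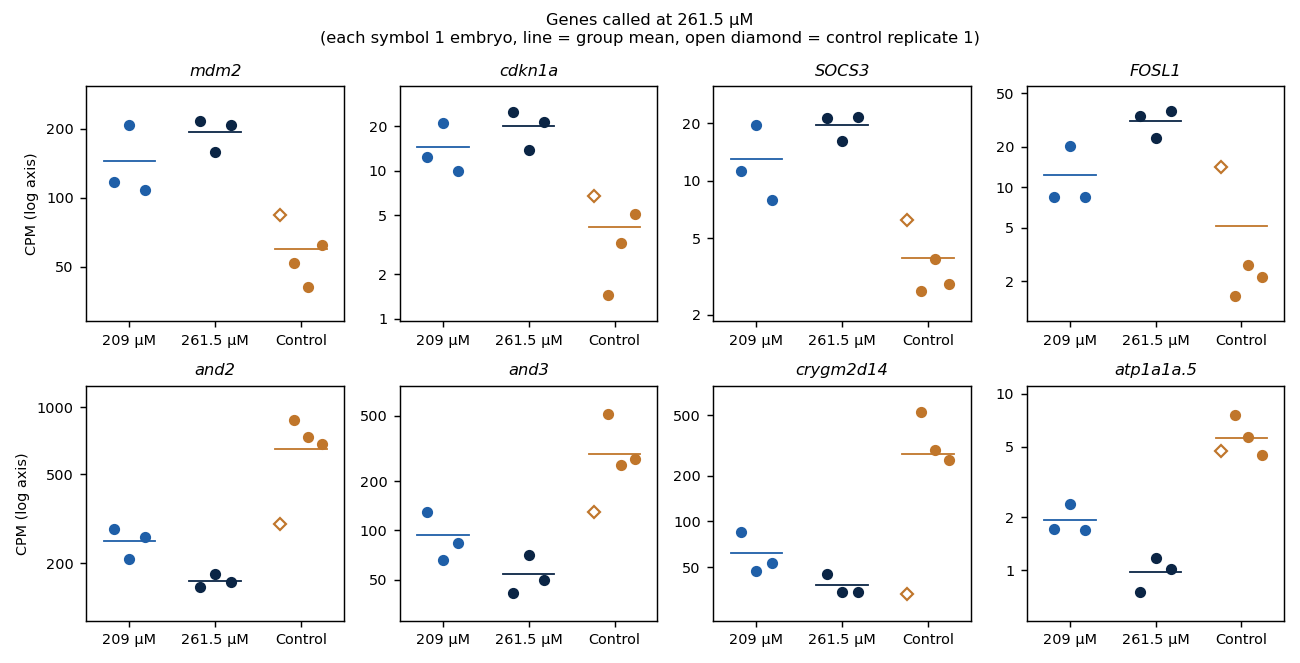
CPM on a log axis for 8 genes that were DEGs at 261.5 µM, in the 209 µM embryos, the 261.5 µM embryos and the controls, 1 symbol per embryo, with a line at the group mean and control 1 as an open diamond. The upper row (mdm2, cdkn1a, a SOCS3 copy and FOSL1) is higher and the lower row (and2, and3, crygm2d14 and atp1a1a.5) lower at 261.5 µM, and control 1 lies towards the exposed embryos in 7 of the 8.

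The largest rises at 261.5 µM by the naming rule included tcap and ghrh. The sarcomere gene tcap (titin-cap), which anchors titin at the Z-disc, had 10.6, 20.9 and 10.5 CPM at 209 µM and 21.9, 27.2 and 38.3 CPM at 261.5 µM, against 8.56, 3.3, 3.22 and 2.29 CPM in the controls, a log2 fold change of 1.69 ± 0.46 at 209 µM (adjusted p = 0.187) and 2.75 ± 0.46 at 261.5 µM (adjusted p = 0.00928). The growth hormone releasing hormone gene ghrh had 2.79, 5.16 and 3.61 CPM at 209 µM and 5.32, 4.7 and 10.7 CPM at 261.5 µM, against 2.62, 0.181, 0.354 and 1.16 CPM in the controls, a log2 fold change of 1.87 ± 0.58 at 209 µM (adjusted p = 0.286) and 2.71 ± 0.58 at 261.5 µM (adjusted p = 0.0327). The exposed embryos at 261.5 µM lay above every control in both, which the naming rule required. Solvent Red 169 controls 1 and 2 had 10.8 and 25.5 CPM of tcap and 8.5 and 2.14 CPM of ghrh. The other dyes' remaining controls had at most 4.12 and 1.57 CPM. With the other dyes' controls tcap and ghrh were called again at 261.5 µM. The genes si:ch211-117l17.6, nampt3.2, si:ch211-153b23.3 and si:ch73-56d11.3 had log2 fold changes of 3.71, 3.58, 3.35 and 3.01 at 261.5 µM. With the 18 pooled controls of all dyes and with the 14 of the other dyes nampt3.2 and si:ch211-153b23.3 were not called. At 261.5 µM nampt3.2 had 0.863, 1.35 and 1.93 CPM and si:ch211-153b23.3 21.2, 13.2 and 26 CPM. Solvent Red 169 controls 1 and 2 had 2.51 and 4 CPM and 29.2 and 13.9 CPM of these. The other dyes' remaining controls had at most 0.426 and 6.98 CPM. For si:ch73-56d11.3 the controls had 1.83, 0.0452, 0.191 and 0.141 CPM, and the log2 fold change without control 1 was 5.10, against 3.01 with it. PARP3, a DNA repair enzyme, and crema, a cAMP response factor, were picked because all 7 fits with an embryo left out called them. PARP3 had 34.7, 49.2 and 37.8 CPM at 209 µM and 51.2, 48.8 and 49.6 CPM at 261.5 µM, against 29.5, 24, 22.3 and 22.5 CPM in the controls, a log2 fold change of 1.02 ± 0.15 (adjusted p = 0.0028) at 261.5 µM. For crema that log2 fold change was 1.55 ± 0.26 (adjusted p = 0.0092), with 14.2, 12.1 and 12.7 CPM at 261.5 µM, against 6.57, 1.97, 4.36 and 4.97 CPM in the controls. Solvent Red 169 controls 1 and 2 had 45.6 and 45 CPM of PARP3 and 13.6 and 11.4 CPM of crema. The other dyes' remaining controls had at most 26.3 and 6.63 CPM. With the other dyes' controls both genes were called again at 261.5 µM.

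Genes of the fin fold were lower at 261.5 µM. The actinodins form the collagen-like fibres that stiffen the larval fin fold, and all 3 tested were lower. The gene and2 had 284, 209 and 263 CPM at 209 µM and 156, 178 and 164 CPM at 261.5 µM, against 298, 879, 733 and 688 CPM in the controls, with a log2 fold change of -1.37 ± 0.28 at 209 µM (adjusted p = 0.064) and -1.97 ± 0.29 at 261.5 µM (adjusted p = 0.00322). The gene and3 had 130, 65.9 and 83.7 CPM at 209 µM and 41.5, 70.5 and 50.1 CPM at 261.5 µM, against 129, 514, 252 and 274 CPM in the controls, with a log2 fold change of -1.65 ± 0.43 at 209 µM (adjusted p = 0.165) and -2.44 ± 0.44 at 261.5 µM (adjusted p = 0.0122). The gene and1 had 320, 182 and 240 CPM at 209 µM and 178, 165 and 175 CPM at 261.5 µM, against 292, 460, 391 and 381 CPM in the controls, with a log2 fold change of -0.62 ± 0.20 at 209 µM (adjusted p = 0.308) and -1.14 ± 0.20 at 261.5 µM (adjusted p = 0.0106). At 261.5 µM all exposed embryos were below all controls for each gene, whereas at 209 µM control 1 lay among or next to the exposed embryos. The list was written after these genes had been seen.

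Some lens crystallin genes were lower at 261.5 µM, where 9 of 39 tested were DEGs, 0 of them higher, against 1 at 209 µM. The list's median log2 fold change was -1.51 at 261.5 µM and -0.69 at 209 µM. The gene crygm2d14 had 85.5, 46.9 and 53 CPM at 209 µM and 45, 34.3 and 34.1 CPM at 261.5 µM, against 33, 523, 294 and 256 CPM in the controls, with a log2 fold change of -2.16 ± 0.54 at 209 µM (adjusted p = 0.153) and -2.87 ± 0.56 at 261.5 µM (adjusted p = 0.0199). The gene crygm2d15 had 72.8, 35.9 and 34.2 CPM at 209 µM and 33.1, 21.5 and 25.9 CPM at 261.5 µM, against 24.8, 354, 148 and 129 CPM in the controls, with a log2 fold change of -1.78 ± 0.54 at 209 µM (adjusted p = 0.268) and -2.61 ± 0.56 at 261.5 µM (adjusted p = 0.0327). In both genes control 1 lay among or below the exposed embryos. At 261.5 µM crygm2d11 and crygm2d14 were called again with the 14 controls of the other dyes, crygm2d11 also with the 18 pooled controls. With neither were crygm2d6, crygm2d8, crygm2d15, crygm2d16, crygm2d17, crygm5 and crygmxl1 called. Solvent Red 169 controls 1 and 2 had 14.9 and 16.5 CPM of crygm2d14 and 8.5 and 16.2 CPM of crygm2d15. The other dyes' remaining controls had 136 to 204 and 61.2 to 99.3 CPM, below Disperse Blue 14 controls 2, 3 and 4. Without control 1 the counts were 12 of 38 at 209 µM and 26 of 38 at 261.5 µM. The alpha crystallin CRYAA, a chaperone made early in the lens, averaged 81.8, 81.5 and 70.3 CPM at 209 µM, at 261.5 µM and in the controls. The crygm2d genes are similar copies, so their separate values are uncertain.

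With all 4 controls, single genes of ionocytes, pigment cells, cones and liver were also lower at 261.5 µM. Of 16 ionocyte genes tested 2 were lower and 0 higher, the sodium pump subunits atp1a1a.5 and atp1a1a.3. The gene atp1a1a.5 had 1.71, 2.37 and 1.7 CPM at 209 µM and 0.755, 1.17 and 1.02 CPM at 261.5 µM, against 4.74, 7.57, 5.72 and 4.49 CPM in the controls and a log2 fold change of -1.54 ± 0.37 at 209 µM (adjusted p = 0.124) and -2.51 ± 0.39 at 261.5 µM (adjusted p = 0.00503), and it was called in all 7 fits with an embryo left out. The gene atp1a1a.3 had 21.8, 18.3 and 24 CPM at 209 µM and 17.8, 17.8 and 14.1 CPM at 261.5 µM, against 17.7, 66.8, 36.4 and 41.6 CPM in the controls, so control 1 was as low as the exposed embryos. The melanosome gene pmelb had 78.9, 60.8 and 70.4 CPM at 209 µM and 53.4, 57.2 and 54.3 CPM at 261.5 µM, against 58, 223, 126 and 119 CPM in the controls, 1 of 14 pigment cell genes called, with a log2 fold change of -1.26 ± 0.29 (adjusted p = 0.0395) at 261.5 µM. The long-wave cone opsin opn1lw2 had 1.57, 0.931 and 1.73 CPM at 209 µM and 1.46, 1.63 and 1.28 CPM at 261.5 µM, against 1.23, 17.1, 8.56 and 11 CPM in the controls, 1 of 23 retinal genes called, with a log2 fold change of -2.70 ± 0.55 (adjusted p = 0.0251). HPD, an enzyme of tyrosine breakdown, had 11.9, 10.4 and 14.8 CPM at 209 µM and 7.72, 7.69 and 10.1 CPM at 261.5 µM, against 15.9, 25.6, 23.1 and 20.6 CPM in the controls, a log2 fold change of -1.33 ± 0.20 (adjusted p = 0.00503) at 261.5 µM, and was picked because all 7 fits called it. Solvent Red 169 controls 1 and 2 had 9.3 and 13.1 CPM of HPD, against at least 14.8 CPM in the other dyes' remaining controls. For pmelb and opn1lw2 control 1 lay near the exposed embryos and far below the other controls. Without control 1, 8 of the 23 retinal genes were lower at 209 µM and 6 at 261.5 µM. Of the 14 pigment cell genes 1 and 3 were then lower, and of the 16 ionocyte genes 2 at each dose. In these lists 0 were higher. Over all genes in these fits 1.08% and 2.21% were lower.

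The largest falls at 261.5 µM by the naming rule, beside genes already described, were si:ch211-255g12.6, crybgx, spi2, MPP4 and si:dkey-183i3.5. The gene si:ch211-255g12.6 had 7.15, 2.74 and 2.4 CPM at 209 µM and 0.971, 1.58 and 1.04 CPM at 261.5 µM, against 1.89, 76.3, 45.4 and 37.3 CPM in the controls. The fitted log2 fold change was -3.30 ± 0.75 at 209 µM (adjusted p = 0.101) and -5.06 ± 0.83 at 261.5 µM (adjusted p = 0.00846). The other 4 had log2 fold changes from -4.71 to -2.43 and adjusted p from 0.0327 to 0.0412 at 261.5 µM. Each of these 4 was called in 1 of the 7 fits with an embryo left out. In each of the 5 genes control 1 was the lowest control and lay close to the exposed embryos.

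Targets of the aryl hydrocarbon receptor could not be called with all 4 controls. Of 16 genes of this battery tested, 0 were DEGs at either dose. CYP1A1 had 85.5, 106 and 63.6 CPM at 209 µM and 131, 79.4 and 106 CPM at 261.5 µM, against 1350, 6.37, 4.58 and 5.39 CPM in the controls. In edgeR's fit the log2 fold change was -2.01 ± 1.34 at 209 µM (adjusted p = 0.764) and -1.70 ± 1.32 at 261.5 µM (adjusted p = 0.477). Without control 1 the direction turned, to 3.96 (adjusted p = 4.51e-07) at 209 µM and 4.27 (adjusted p = 1.76e-07) at 261.5 µM. Control 1 was known to be extreme in this gene, so these p-values are no independent test. The 3 remaining controls lay below all 6 exposed embryos, and control 1 lay far above them.

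The same held for the related CYP1 genes. The gene cyp1c1 had 141, 235 and 175 CPM at 209 µM and 238, 189 and 231 CPM at 261.5 µM, against 547, 8.31, 24.6 and 19.2 CPM in the controls, and its log2 fold change without control 1 was 3.40 (adjusted p = 2.85e-05) at 209 µM and 3.66 (adjusted p = 1.03e-05) at 261.5 µM. The gene cyp1c2 had 42.3, 47.8 and 36 CPM at 209 µM and 54.3, 50.6 and 42.8 CPM at 261.5 µM, against 86, 6.03, 5.48 and 6.49 CPM in the controls, with 2.81 (adjusted p = 5.79e-07) at 209 µM and 3.04 (adjusted p = 2.69e-07) at 261.5 µM without control 1. CYP1B1 had 7.64, 17.1 and 13.2 CPM at 209 µM and 17.4, 14.5 and 20.9 CPM at 261.5 µM, against 60.6, 1.94, 5.4 and 4.91 CPM in the controls, with 1.64 (adjusted p = 0.0246) at 209 µM and 2.11 (adjusted p = 0.00307) at 261.5 µM without control 1. In each of these control 1 was the highest of the 10 embryos and the other 3 controls were the lowest. With all 4 controls the adjusted p at 261.5 µM was 0.744 for cyp1c1, 0.457 for cyp1c2 and 0.98 for CYP1B1. Without control 1, 5 of the 16 genes were higher at either dose, and 1 was lower at 209 µM, the receptor gene ahr1b with 8.76, 13.3 and 17.5 CPM at 209 µM and 15.9, 17.5 and 14.7 CPM at 261.5 µM, against 10.5, 15.5, 34.4 and 36.8 CPM in the controls. The fifth gene was FOXQ1, a forkhead factor, with 6.59, 3.81 and 4.16 CPM at 209 µM and 5.5, 4.09 and 4.25 CPM at 261.5 µM, against 12.5, 1.65, 2.7 and 1.86 CPM in the controls.

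**Figure D4:**
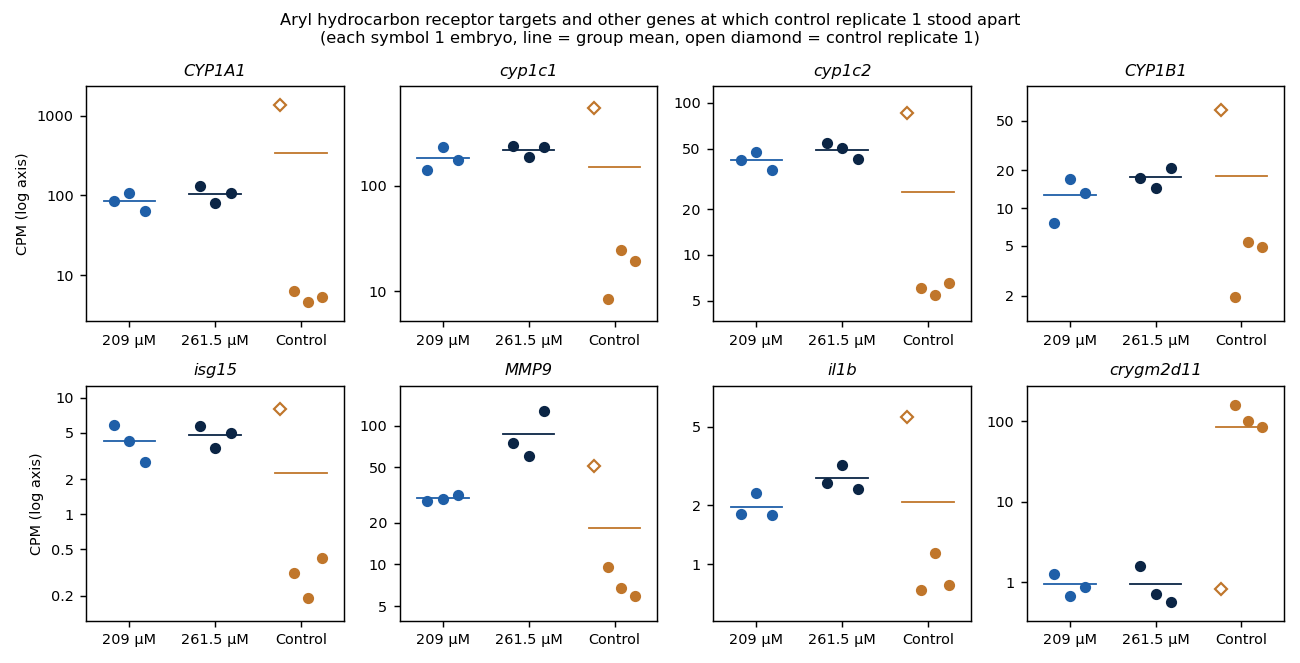
CPM on a log axis for 8 genes in the 209 µM embryos, the 261.5 µM embryos and the controls, 1 symbol per embryo, with a line at the group mean and control 1 as an open diamond. Control 1 lies above all exposed embryos for CYP1A1, cyp1c1, cyp1c2, CYP1B1, isg15 and il1b, among the exposed embryos for crygm2d11 and above the 209 µM embryos for MMP9, while controls 2, 3 and 4 lie on the other side.

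The control embryos of the other 4 dyes were compared next. CYP1A1 lay at 3.27 to 193 CPM (median 5.36) in these 14 embryos, scaled jointly with the Disperse Blue 14 embryos. The 4 highest were Solvent Red 169 controls 1 and 2, at 171 and 193 CPM, and Disperse Red 9 controls 1 and 2, at 52.5 and 46.5 CPM, and the next was at 5.99 CPM. In cyp1c1 none of the 14 passed 34.7 CPM, and every Disperse Blue 14 embryo at 209 and 261.5 µM had at least 141 CPM. With these 14 embryos as the control, cyp1c1 was a DEG at 209 µM (log2 fold change 2.80, adjusted p = 6.03e-11) and at 261.5 µM (3.06, adjusted p = 5.39e-12). So was cyp1c2 (2.32, adjusted p = 1.42e-05, and 2.55, adjusted p = 1.59e-06). CYP1A1 was not (1.24, adjusted p = 0.611, and 1.55, adjusted p = 0.447). This comparison was chosen after the values of control 1 were seen, and these controls were not exposed alongside Disperse Blue 14.

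The interferon-stimulated gene isg15, a ubiquitin-like modifier, behaved like the CYP1 genes. It had 5.81, 4.23 and 2.8 CPM at 209 µM and 5.67, 3.7 and 5.01 CPM at 261.5 µM, against 8.02, 0.316, 0.191 and 0.424 CPM in the controls, with a log2 fold change of 0.96 ± 0.81 at 209 µM (adjusted p = 0.856) and 1.12 ± 0.81 at 261.5 µM (adjusted p = 0.446) and 3.77 (adjusted p = 3.76e-05) at 209 µM and 3.94 (adjusted p = 1.87e-05) at 261.5 µM without control 1. Solvent Red 169 controls 1 and 2 had 11.9 and 8.51 CPM of isg15, against at most 0.596 CPM in the other dyes' remaining controls. Of 17 interferon response genes tested, 0 were DEGs at either dose with all controls, and 5 and 6 were higher without control 1. The list does not hold ifitm1, a DEG at 209 µM, or isg20, an interferon-stimulated exonuclease gene and a DEG at 261.5 µM (log2 fold change 1.13, adjusted p = 0.0199), which was picked after its values were seen. The heme oxygenase HMOX1, a marker of oxidative stress, had 56.6, 25.4 and 23.9 CPM at 209 µM and 28.7, 32.7 and 32.3 CPM at 261.5 µM, against 34.8, 20.7, 14.4 and 15.8 CPM in the controls and did not pass at either dose with or without control 1. Neither did the glutathione transferase gstp1.1, with 4.26, 1.58 and 2.14 CPM at 209 µM and 2.51, 2.12 and 1.98 CPM at 261.5 µM, against 1.61, 2.62, 0.708 and 0.819 CPM in the controls. With the 14 controls of the other dyes gstp1.1 was a DEG at both doses (log2 fold change 2.0, adjusted p = 0.00878, at 209 µM and 1.74, adjusted p = 0.0140, at 261.5 µM). Of 23 Nrf2 and antioxidant genes 0 were DEGs at either dose with all controls. Without control 1 only nfe2l2b of the 23 was called, higher at both doses (log2 fold change 1.39 and 1.70). Of all genes 2.12% and 4.63% were DEGs in those fits, so 1 call is no result about this list.

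With all 4 controls, genes of endoplasmic reticulum stress held no DEG. The chaperone HSPA5 (BiP) had 209, 89.3 and 98 CPM at 209 µM and 93, 98.6 and 74.8 CPM at 261.5 µM, against 151, 313, 119 and 129 CPM in the controls, so that 209 µM embryo 1 and control 2 were the highest of their groups. The log2 difference from the controls was -0.43 ± 0.32 at 209 µM (adjusted p = 0.817) and -1.0 ± 0.33 at 261.5 µM (adjusted p = 0.155). The asparagine synthetase gene ASNS, a target of Atf4, had 63.9, 67.5 and 76.2 CPM at 209 µM and 95.3, 83.7 and 75.6 CPM at 261.5 µM, against 64.4, 58.5, 51.6 and 54.2 CPM in the controls, and its log2 fold change at 261.5 µM, 0.57 ± 0.13 (adjusted p = 0.0382), was under the threshold of a 1.5-fold change. Without control 1 it passed at this dose (0.63, adjusted p = 0.0106). Of 16 chaperone, 26 amino acid stress and 18 heat shock genes tested, 0 were DEGs at either dose with all controls. Without control 1, 2 of the amino acid stress genes were higher at 209 µM and 4 at 261.5 µM, and at 261.5 µM 1 heat shock gene (BAG3) was higher and 1 chaperone gene (PDIA6) lower. In these fits 2.12% and 4.63% of all genes were DEGs, so the single calls of BAG3 and PDIA6 are no result about their lists.

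Blood cell and barrier genes gave a few calls at 261.5 µM. Of 22 macrophage genes 2 were higher, IRF8, the factor that specifies macrophages, with 3.84, 3.92 and 2.92 CPM at 209 µM and 4.1, 4.77 and 3.55 CPM at 261.5 µM, against 1.42, 2.37, 2.32 and 2.2 CPM in the controls, and the amino acid carrier SLC7A7, with 22.8, 19.5 and 24.1 CPM at 209 µM and 21.6, 24.7 and 23.2 CPM at 261.5 µM, against 15.7, 11.7, 10.1 and 11.5 CPM in the controls. Their log2 fold changes at 261.5 µM were 0.99 ± 0.21 (adjusted p = 0.0316) and 0.92 ± 0.20 (adjusted p = 0.0316). Solvent Red 169 controls 1 and 2 had 5.61 and 4.9 CPM of IRF8, above every exposed embryo. The list's median log2 fold change was 0.44 at 209 µM and 0.29 at 261.5 µM. Without control 1, 3 of the list were higher at 209 µM, and at 261.5 µM 2 were higher and 1 lower. Of 9 neutrophil genes 0 were DEGs at either dose. The E-cadherin gene cdh1, which joins epithelial cells, was 1 of 18 epidermal genes called, at 0.78 ± 0.18 (adjusted p = 0.039), and the vessel-dilating peptide gene ADM was 1 of 20 hypoxia genes, at 0.91 ± 0.19 (adjusted p = 0.0254). Unlike cdh1, 12 of the 18 epidermal genes had a log2 fold change below 0 at 261.5 µM, and the list's median was -0.18. For the hypoxia list the median was 0.06. Among all genes tested 0.777% were called higher at this dose. In the clock list of 16 genes, CRY1 and the photolyase-like cry5 were higher, and cry5 had 0.74 ± 0.17 (adjusted p = 0.0412). None of IRF8, SLC7A7, cdh1, ADM, CRY1 and cry5 was called in all 7 fits with an embryo left out. With the 18 pooled controls of all dyes and with the 14 of the other dyes IRF8 was not called at 261.5 µM. The other genes named here were called with both.

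Large sets of housekeeping genes had negative medians at 261.5 µM without a single DEG. The median log2 fold change of 69 cytosolic ribosomal protein genes was 0.26 at 209 µM and -0.79 at 261.5 µM, and 1 of the 69 was above 0 at 261.5 µM. For 80 nuclear genes of the respiratory chain it was 0.05 and -0.73, with 3 of the 80 above 0 at 261.5 µM. For 33 proteasome genes it was -0.08 and -0.43. In none of the 3 lists was a gene a DEG at either dose. Single embryos carried much of these medians. The mean log2 CPM of the ribosomal protein genes was 9.60, 7.80 and 8.15 at 209 µM and 7.96, 7.80 and 7.54 at 261.5 µM, against 8.27, 9.57, 7.67 and 7.78 in the controls, so 209 µM embryo 1 and control 2 were high and the 261.5 µM embryos lay around controls 3 and 4. Without control 2 the median at 261.5 µM was -0.18 for the ribosomal protein genes, -0.23 for the respiratory chain and -0.14 for the proteasome. Without 209 µM embryo 1 the medians at 209 µM were -0.56, -0.43 and -0.35. Control 2 is also the most deeply sequenced embryo, and the part of depth in these medians was not tested. The 13 mitochondrially encoded genes had medians of 0.29 and 0.40, which were 0.002 and 0.053 without control 2.

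The direct test of 261.5 µM against 209 µM gave 0 DEGs of 17887 genes (0%), and 627 genes (3.51%) had an unadjusted p under 0.05. No control enters this contrast, but its spread was estimated over all 19 embryos, controls among them. A fit of these 2 groups alone gave 0 DEGs of 17293 genes as well. DESeq2 called 5, of which 4 had 0 counts in most of the 6 embryos, and the fifth was zgc:174680 with 5.61, 7.17 and 6.37 CPM at 261.5 µM and 2, 2.57 and 2.74 CPM at 209 µM. The count of DEGs was thus larger at 261.5 µM than at 209 µM, while no gene differed between the doses by edgeR's test. The ubiquitin ligase gene mdm2 had a log2 difference of 0.43 between the doses and TIMP2 of 1.38, and neither passed.

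The other doses of the dye share the same 4 controls. For stab2, MRC1, c6.2 and npvf the embryos of every dose lay on the same side of these controls. How many of the genes above did so was not counted. At 133 and 171 µM the 6 embryos had 10.1 to 16.8 CPM of stab2, and at 314 µM the 3 embryos had 10.5 to 11.9 CPM. For MRC1 these were 10.2 to 19.6 CPM and 12.3 to 14.4 CPM, for c6.2 97.6 to 145 CPM and 126 to 148 CPM, and for npvf 7.92 to 11.4 CPM and 8.41 to 12.3 CPM. FOSL1 was more scattered, at 10.4 to 50.8 CPM and 20.7 to 64.1 CPM. In the 14 control embryos of the other dyes stab2 lay at 25.6 to 94.3 CPM (median 45.8) and npvf at 0.767 to 6.51 CPM (median 3.19), so that no exposed embryo at 209 or 261.5 µM reached these ranges for either gene. For c6.2 they lay at 19.8 to 132 CPM (median 24), with 132 and 91.5 CPM in Solvent Red 169 controls 1 and 2 and at most 32.6 CPM in the other 12. With these 14 embryos as the control, 20 of the 24 DEGs at 209 µM and 127 of the 191 at 261.5 µM were called again. Over all 18053 genes tested in that fit, 168 and 398 were called. The exposed embryos were the same, so this is no separate replication.

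**Figure D5:**
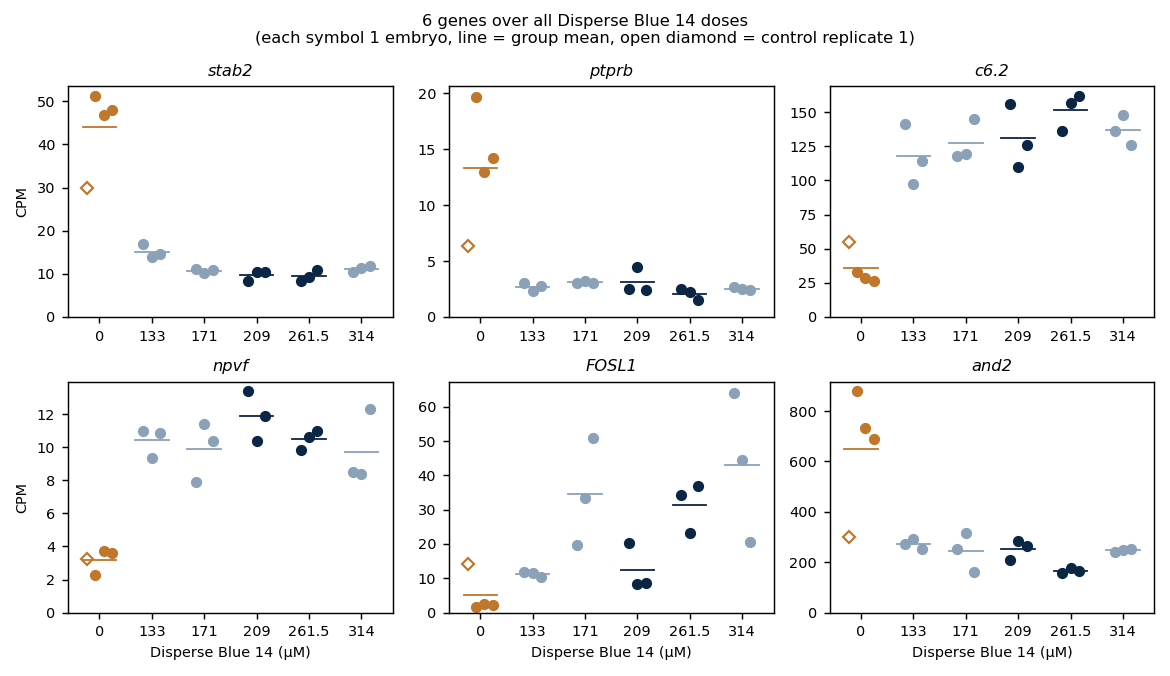
CPM for 6 genes against the nominal concentration of Disperse Blue 14 (µM) from the control (0) to the highest dose, 1 symbol per embryo, with a line at the group mean, control 1 as an open diamond and the 209 and 261.5 µM embryos in the darkest colour. For stab2, ptprb, c6.2 and npvf the embryos of all 5 doses lie on one side of all 4 controls, while FOSL1 spreads most between the embryos of a dose.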

How the data were processed

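RNA of single 48 hpf embryos was sequenced as poly-A libraries in paired ends. Per the labels and the study's methods, the authors trimmed reads with Trim Galore (version 0.6.5), quantified Ensembl transcripts of GRCz11 with Salmon (version 1.1.0) in selective alignment mode and summed them to genes with tximport. They deposited estimated counts (expected counts, of which 62.2% are whole numbers) for 19913 genes, and log2 CPM values made with edgeR (version 3.28.1). Copies of a gene share reads that Salmon assigns by a model. The authors' normalization for gene length was not applied here.

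The deposited estimated counts were rounded and tested in R (version 4.3.3) with edgeR (version 4.0.16, TMM factors, filterByExpr, quasi-likelihood F test), 1 fit over 19 embryos of 6 groups with no covariate, Benjamini-Hochberg adjusted over 17887 genes. Errors of fold changes are standard errors taken from the F statistic. Alternatives were median-ratio factors, other filters, fits of fewer groups, a replicate block, pooled controls, limma (version 3.58.1) on the deposited log2 CPM, DESeq2 (version 1.42.0) and leaving out each embryo. The use of the other dyes' controls alone was added after the values were seen.

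Named genes were all DEGs at 209 µM, the 10 largest rises and falls at 261.5 µM that had a symbol, a mean of 1 CPM or more and groups that did not overlap, up to 3 DEGs of each list by adjusted p, a set of sentinel genes, and further genes and 4 lists named after their values were seen. 1 gene is not reported here and was left out of its list. The members and lists were chosen with earlier results of these data known. Gene symbols came from a table that matched 19164 IDs. The total of estimated counts per embryo is the depth, and bounds from counts of 0 use 3 counts per library.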

Additional observations from a re-analysis of the deposited data

Results flagged for a closer look

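Among the 4 controls of Disperse Blue 14, single embryos lay far from the other 3 in 22 of the quantities examined, 16 of 99 named genes and 6 of 42 list means, by Dixon's ratio of the gap to the range against its 95% critical value. For normally distributed values chance gives this in about 1 group of 20. The genes were checked as CPM without a log, so that share need not hold for them. Many of the named genes were also chosen with the values of control 1 known. Control 1 was the highest for the aryl hydrocarbon receptor targets CYP1A1 (ratio 0.999), cyp1c2 (0.987), cyp1c1 (0.970), CYP1B1 (0.941) and FOXQ1 (0.903). It was also the highest for isg15 (0.970), MMP9 (0.919), il1b (0.918), FOSL1 (0.915) and tcap (0.839). The same held for ms4a17a.11 (0.952), ms4a17a.1 (0.912), ms4a17a.5 (0.841) and si:ch73-56d11.3 (0.918). For the mean level of whole lists, control 1 was the highest for cytokines and chemokines (0.893) and for the ms4a17a family (0.843), and the lowest for retina and photoreceptors (0.855) and neurons (0.862).

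Control 2, the most deeply sequenced embryo, was the highest for the chaperone HSPA5 (0.835) and for pecam1a (0.856), and for the mean level of the chaperone list (0.861) and of the respiratory chain list (0.893).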

How the results depend on the processing

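The counts of DEGs changed with the embryos in the fit and with the method. With only the 2 groups compared there were 0 DEGs at both doses, and with only the 209 µM, 261.5 µM and control groups 5 and 11. With 18 pooled controls there were 85 and 312, with the 14 controls of the other dyes 168 and 398, and with DESeq2 173 and 580, with 5 between the doses. The cause of these shifts was not tested. Leaving out 1 embryo gave 10 to 379 DEGs at 209 µM, 24 to 827 at 261.5 µM and 0 between the doses. For the test between the doses only exposed embryos were left out, not controls. Median-ratio factors gave 22 and 186, no filter 20 and 169, and limma on log2 CPM 28 and 163.

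Deviations from the group mean correlated at -0.469 to 0.252 between same-numbered embryos. With so few embryos per group these values cannot settle whether the numbers pair them. With the replicate block there were 18 and 162 DEGs and 0 between the doses.

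Directions turned in some genes, most of them genes where control 1 stood apart. For CYP1A1 the log2 fold change at 209 µM was 0.59 with the replicate block and 1.24 with the other dyes' controls. At 261.5 µM it was 0.96 with the block, 0.000767 with pooled controls and 1.55 with the other dyes' controls. CYP1B1 had 0.22 with the block and 0.15 with the other dyes' controls at 209 µM, and 0.59, 0.42 (pooled) and 0.62 at 261.5 µM. The gene il1b had 0.093 with the block, 0.65 with pooled and 1.0 with the other dyes' controls at 209 µM. FOXQ1 at 261.5 µM had 0.0021 with edgeR's newer dispersion method, 0.25 with the block, 0.30 with pooled and 0.45 with the other dyes' controls. The direction of anxa1b, where control 1 was nearer to the other controls, turned only with the other dyes' controls (-0.076). With 1 embryo left out, values ran from -2.42 to 3.96 and -2.12 to 4.27 (CYP1A1 at 209 and 261.5 µM), -0.90 to 1.64 and -0.44 to 2.11 (CYP1B1), -0.23 to 1.23 and -0.31 to 1.16 (FOXQ1), -0.11 to 3.40 (cyp1c1 at 209 µM) and -0.35 to 1.14 (il1b at 209 µM).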

Other observations

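Lists of other tissues and functions held 0 DEGs at both doses in edgeR's quasi-likelihood test. For 11 heart muscle genes the median log2 fold change was 0.23 at 209 µM and 0.18 at 261.5 µM, and for 18 contractile genes of skeletal muscle it was -0.07 and -0.50. It was -0.07 and -0.23 for 14 genes of embryonic globins and heme synthesis, -0.27 and -0.35 for 17 yolk and liver secretory genes, and 0.04 and 0.10 for 17 myelin and glia genes. Genes of the cell cycle had medians of -0.17 and -0.43 (37 DNA replication genes) and -0.07 and -0.27 (25 mitosis genes). The medians were -0.12 and -0.14 for 24 DNA repair genes, 0.10 and 0.11 for 25 autophagy genes, -0.06 and -0.11 for 19 genes of cholesterol synthesis, -0.04 and -0.17 for 21 genes of retinoid metabolism and 0.28 and -0.03 for 11 ferritin and iron genes. Without control 1, DEGs appeared in the lists of myelin and glia (1 at 209 µM and 2 at 261.5 µM), yolk and liver (2 at 261.5 µM), skeletal muscle (1 at 261.5 µM) and cholesterol synthesis (1 at 261.5 µM), and the other lists of this paragraph held 0. In these fits 2.12% and 4.63% of all genes were DEGs, so a single call is no result about its list.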
